A study of Mus musculus with 12 samples.

Results

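Connective tissue mast cells are represented here by 9 of the 25070 named genes in a table of mouse skin expression. The genes were taken by symbol: Mcpt4, Cma1, Tpsb2, Cpa3, Kit, Kitl, Mcpt1, Mcpt2 and Gata2. All 9 were found, and 8 of them reached the level needed for testing (at least 1 CPM, reads of the gene scaled to a library of 1 M reads, in at least 2 of 11 libraries). Mcpt2 did not reach it and is given by its values.

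RNA was measured in biopsies of skin 4 days after ticks attached to mice, in 12 libraries labelled by immunization. The series asks how mouse skin responds when infestation is repeated. Naive skin carried no bite (n = 2), first exposure was bitten skin of mice exposed for the first time (n = 3), ticks 2x and ticks 3x were bitten skin of mice labelled with those repeat exposures (n = 3 each), and 1 library came from bitten skin of a mouse labelled saliva immune. It is not stated whether 2x and 3x count the infestation that was sampled, how saliva immunity was raised, or what strain, sex and age the mice were and which tick was used. Nothing in the labels says that each library is a separate animal, so the p-values measure only the spread between these samples, which may be technical. The titles place first exposure and saliva immune in a series numbered 4 and the other groups in a series numbered 6, so a difference involving first exposure cannot be told apart from a difference between title series.

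Mast cells sit in the connective tissue of skin around vessels and follicles and store histamine, heparin and proteases in granules that are released when IgE receptors or other receptors are triggered. Their survival and growth depend on KIT, the receptor tyrosine kinase for stem cell factor, which is encoded by Kitl and made by fibroblasts, keratinocytes and other resident cells. In mice, the connective tissue type is recognised by the chymases Mcpt4 and Cma1, tryptase and carboxypeptidase A3, whereas Mcpt1 and Mcpt2 are the chymases of mucosal mast cells in gut and airway. Mast cells have been studied in tick-bitten skin because histamine and acquired resistance to ticks are linked in several hosts.

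Estimated depth ranged from 12.5 to 29.8 M reads per library, which put the floor of 3 reads between 0.101 and 0.24 CPM. The floor covers counting error only. The libraries differed in tissue content inside every group. The mean of 20 hair follicle genes, on the log2(CPM + 1) scale, was 7.35 and 0.81 in the naive pair of libraries, 8.91, 9.24 and 1.44 in the first exposure group, 8.74, 2.42 and 0.60 in the 2x group, 4.91, 6.43 and 0.62 in the 3x group and 0.54 in saliva immune skin. In a tissue sample, fewer cells of a type and less RNA per cell cannot be told apart.

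The connective tissue chymases, tryptase and carboxypeptidase were detected in every library, while the mucosal chymases Mcpt1 and Mcpt2 were at or below 4 estimated reads in every naive and first exposure library. The 4 granule proteases had higher means in 2x and 3x skin than in naive skin, by 1.94-fold to 3.51-fold, with no overlap between libraries, but none passed the test across all genes. Of all genes, 14.7% were higher without overlap in 2x and 15.5% in 3x. Kit and Kitl did not follow the proteases. Gata2 was lowest after first exposure.

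RefSeq start sites on GRCm38.p6 were available for 7 of the 9 genes. The GATA factors bind the letters GATA, and the motif GATAA, searched on both strands in the 250 bases before each start, was present for the protease genes Mcpt4, Cma1, Cpa3 and Mcpt1 and absent from these windows for Kit, Kitl and Gata2. Of all 32851 RefSeq promoter windows of the same length, 22.6% held the motif. These 4 sequences are shown because the results turn on these proteases and on Gata2. Each is printed 5′ to 3′ on the strand of its gene, with GATAA or its reverse complement TTATC in capitals.
Mcpt4, chr14:56062311-56062560, minus strand: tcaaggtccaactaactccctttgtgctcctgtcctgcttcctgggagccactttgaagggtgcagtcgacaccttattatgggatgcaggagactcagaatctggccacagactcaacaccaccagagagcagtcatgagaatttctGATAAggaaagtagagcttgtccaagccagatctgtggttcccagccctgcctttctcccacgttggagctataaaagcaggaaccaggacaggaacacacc
Mcpt1, chr14:56017714-56017963, plus strand: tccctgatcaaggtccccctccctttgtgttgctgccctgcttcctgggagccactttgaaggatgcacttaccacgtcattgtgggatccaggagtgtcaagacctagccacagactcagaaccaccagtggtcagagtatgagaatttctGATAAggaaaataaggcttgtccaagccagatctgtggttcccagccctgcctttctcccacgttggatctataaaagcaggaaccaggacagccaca
Cma1, chr14:55944676-55944925, minus strand: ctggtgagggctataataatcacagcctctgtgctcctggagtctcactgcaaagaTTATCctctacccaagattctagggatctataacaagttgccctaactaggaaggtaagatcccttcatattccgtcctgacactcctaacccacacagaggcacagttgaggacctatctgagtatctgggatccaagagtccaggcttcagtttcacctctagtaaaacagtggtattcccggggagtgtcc
Cpa3, chr3:20242182-20242431, minus strand: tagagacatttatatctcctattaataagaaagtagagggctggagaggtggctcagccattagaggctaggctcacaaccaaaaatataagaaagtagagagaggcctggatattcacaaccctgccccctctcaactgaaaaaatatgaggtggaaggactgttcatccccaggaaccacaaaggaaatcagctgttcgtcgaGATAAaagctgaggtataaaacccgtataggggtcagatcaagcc
The first base of the motif lay 102 bases before the start for Mcpt4, 98 for Mcpt1, 194 for Cma1 and 45 for Cpa3. The Cpa3 window overlaps the end of the interval RefSeq gives for that gene, because its listed transcript starts inside that interval. The windows of Mcpt4 and Mcpt1 were 81.0% identical, and the other pairs among the 4 genes were between 45.1% and 49.3% identical. TATAAA was found for Mcpt4, Mcpt1, Cpa3 and Kitl, against 12.4% of all windows. The E-boxes CACGTG and CATGTG, letters bound by factors such as MITF, were found in none of the 7 genes' windows, against 6.02% and 12.3% of all windows. A match of letters is a description of the window and not evidence of binding.

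Mcpt4 encodes the mouse chymase regarded as the functional counterpart of human chymase. On GRCm38.p6, RefSeq places it on chromosome 14 from 56059744 to 56062310. Its level was 73.4 and 60.3 CPM in the naive libraries and 47.8, 22.7 and 111 CPM in the first exposure libraries. The 2x libraries had 133, 129.7 and 129 CPM, and the 3x libraries 185, 129.7 and 74.1 CPM. The first exposure libraries lay on both sides of the naive pair, the 2x libraries were close to each other, and the 3x libraries reached from just above naive to the highest level of all. The group means were 66.9 ± 9.28 (SD, n = 2), 60.6 ± 45.7 (n = 3), 131 ± 2.04 (n = 3) and 129.7 ± 55.7 CPM (n = 3). Against naive skin, the mean was 1.95-fold as high in 2x and 1.94-fold in 3x. On the log2 scale of the fit the difference was 0.96 for 2x (95% interval -0.30 to 2.23, limma adjusted p = 0.558) and 0.86 for 3x (limma adjusted p = 0.825).

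Cma1 encodes an alpha-chymase that in mice has acquired elastase-like activity. It lies in the same chymase locus, on chromosome 14 from 55941451 to 55944675. Cma1 stood at 43.7 and 37.4 CPM in the naive group, 38.8, 19.7 and 106 CPM in the first exposure group, 127, 107 and 108 CPM in 2x, and 146, 97.2 and 49.3 CPM in 3x. Every 2x and 3x library was above both naive libraries, and the third first exposure library was level with 2x. The mean was 2.81-fold the naive mean in 2x and 2.40-fold in 3x. As a log2 fold change this was 1.47 in 2x (95% interval 0.09 to 2.85, limma adjusted p = 0.428) and 1.12 in 3x (limma adjusted p = 0.782).

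Tpsb2 encodes the tryptase mMCP-6, a heparin-stabilised protease of connective tissue mast cell granules, on chromosome 17 from 25366308 to 25368096. Tpsb2 measured 31.6 and 19.4 CPM in the naive group, 25.6, 14.9 and 65.8 CPM in the first exposure group, 111, 88.0 and 69.9 CPM in 2x, and 143, 80.8 and 41.8 CPM in 3x. The 2x and 3x libraries did not overlap with naive, and the last first exposure library was again far above the others. Of the 4 proteases it differed most from naive skin, with means 3.51-fold as high in 2x and 3.47-fold in 3x. The fitted log2 fold change was 1.79 in 2x (95% interval 0.40 to 3.18, limma adjusted p = 0.364) and 1.63 in 3x (95% interval 0.23 to 3.02, limma adjusted p = 0.665).

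Cpa3 encodes carboxypeptidase A3, which trims peptides in the granule together with the chymases, on chromosome 3 from 20215616 to 20242209. Its values were 57.2 and 45.2 CPM in the naive group, 42.8, 18.4 and 103 CPM in the first exposure group, 129.7, 138 and 104 CPM in 2x, and 170.0, 118 and 59.0 CPM in 3x. The lowest 3x library was just above the higher naive one, so these groups did not overlap. The mean was 2.42-fold the naive mean in 2x and 2.26-fold in 3x. Fitted values were 1.26 on the log2 scale in 2x (95% interval -0.15 to 2.66, limma adjusted p = 0.495) and 1.04 in 3x (limma adjusted p = 0.806).

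Corrected for exon length, the proteases in naive skin were ordered Mcpt4 at 60.4 CPM per kb, Cma1 at 37.2, Cpa3 at 35.3 and Tpsb2 at 16.0. In 2x skin the same levels were 118 CPM per kb for Mcpt4, 105 for Cma1, 85.5 for Cpa3 and 56.2 for Tpsb2. Mcpt4 thus led in both groups and Tpsb2 was the lowest of the 4. For each of the 4 genes, the groups next to each other in order of mean CPM overlapped, except naive and the single saliva immune library for Mcpt4.

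The 4 proteases moved together from library to library. Over the 12 libraries, Pearson's r of the log2(CPM + 1) level with Mcpt4 was 0.967 for Cma1, 0.942 for Tpsb2 and 0.986 for Cpa3, with Spearman's rho of 0.958, 0.993 and 0.993. Each permutation p was 1e-05, the smallest that 100000 resamples can give, and 7.2e-05 after Benjamini-Hochberg adjustment over 36 pairs of members. Without the 2 libraries farthest from the median of Mcpt4, r was 0.95, 0.937 and 0.966. Within the 8 libraries of title series 6, r was 0.983, 0.971 and 0.984. The libraries at the ends were the first replicate of 3x and the second of first exposure, which held the highest and the lowest level of all 4 proteases.

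Ratios within a library remove what the 4 genes share, and these were computed after the levels had been seen, with no test. Cma1 was 0.594 and 0.620 times Mcpt4 in the naive libraries and between 0.665 and 0.956 times in the 9 libraries of first exposure, 2x and 3x. The ratio of Tpsb2 to Mcpt4 was 0.430 and 0.322 in naive skin and between 0.535 and 0.833 in those 9 bitten libraries. For Cpa3 it was 0.779 and 0.750 in naive skin and between 0.796 and 1.07 in the bitten libraries. Both naive libraries were therefore the lowest of all 12 in each ratio, including against saliva immune skin at 0.918, 0.637 and 1.05. This held also for first exposure, whose Mcpt4 mean was below naive. All these ratios share Mcpt4 as the denominator, so they are not separate observations. Ratios of other gene pairs were not computed as a background, so the position of naive skin is a description.

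**Figure D1:**
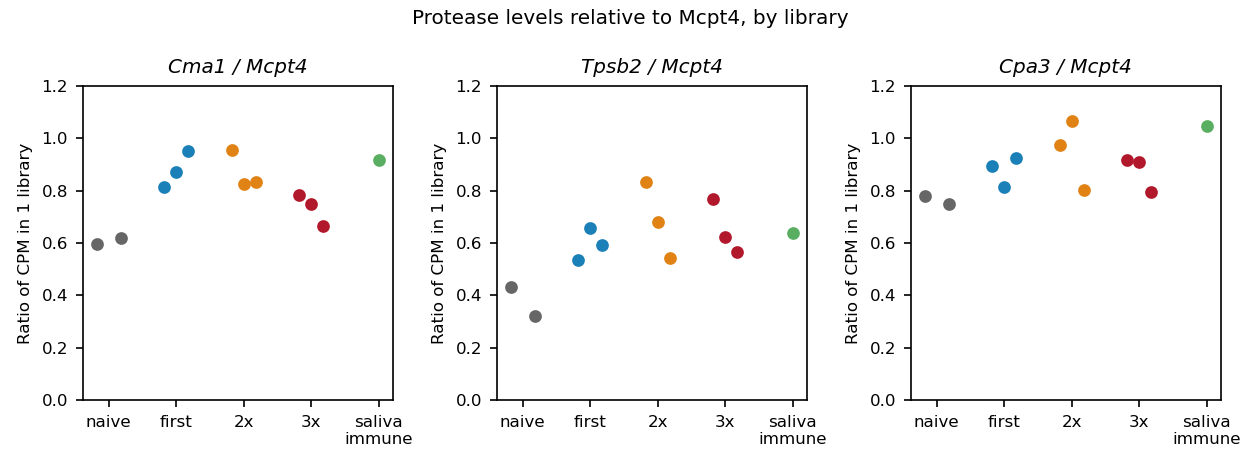
Ratio of the CPM of Cma1, Tpsb2 and Cpa3 to the CPM of Mcpt4 in the same library, 1 point per library, grouped by immunization. The 2 naive points are the lowest in each panel, with the smallest gap for Cpa3 (0.779 against 0.796). No share over other gene pairs was computed.

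Mcpt1 and Mcpt2 encode mucosal chymases that lie between Cma1 and Mcpt4 in the locus on chromosome 14, from 56017964 to 56020391 and from 56021584 to 56044635. Mcpt1 had 0.134 CPM (4 estimated reads) in the first naive library and was listed at 0 in the second. After first exposure it had 0.105 CPM, 0 and 0.0864 CPM, which correspond to 3, 0 and 2 reads. In 2x it stood at 0.246, 3.12 and 2.17 CPM (5, 59 and 35 reads) and in 3x at 1.12, 1.59 and 0.0499 CPM (23, 34 and 1 reads). The first 2x and the third 3x library were thus near the floor, although Mcpt4 stood at 133 and 74.1 CPM in them. Per kb of exon, Mcpt1 in 2x skin was at 1.82 CPM against 118 CPM for Mcpt4.

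Mcpt2 was listed at 0 in the second naive library and in all first exposure libraries, and at 0.0337 CPM in the first naive one. It had 0.0493, 0.634 and 0.869 CPM in 2x (1, 12 and 14 reads) and 0.730, 0.327 and 0 CPM in 3x (15, 7 and 0 reads). The libraries with more than 5 reads of Mcpt1 were the same ones that had more than 5 reads of Mcpt2. Over the 12 libraries the pair correlated with r = 0.919 and rho = 0.901 (adjusted permutation p = 0.00154 and 0.00108), and r was 0.896 without the 2 farthest libraries. Mcpt8, a basophil protease of the same locus, was at 6.18 and 5.15 CPM in the second and the third 2x library and at 6.91 and 7.57 CPM in the first and the second 3x library. It was at 0.0493 CPM in the first 2x library and listed at 0 in the third 3x library and both naive ones.

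The fitted log2 fold change of Mcpt1 against naive skin was 1.25 in 2x (limma adjusted p = 0.413) and 0.75 in 3x (limma adjusted p = 0.828). These values depend on the pseudocount of 1 CPM, because naive skin was near 0: with a pseudocount of 0.1 they were 3.15 and 2.14. Mcpt1 also reached the 1 CPM needed for testing only through 2x and 3x libraries, so a higher value there was set by that filter, and its values are a description. The 5 basophil markers summed to 31.9 and 41.9 CPM in naive skin and to 24.1, 128 and 76.6 CPM in 2x and 84.0, 124 and 27.3 CPM in 3x. Of these markers, Mcpt8 and Prss34 were listed at 0 in both naive libraries. Their part in the Mcpt1 and Mcpt2 values was not tested.

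The reads of close relatives could be split by the authors' counting, which is not described. The coding sequence of Mcpt4 was 86.7% identical to that of Mcpt1, 83.5% to Cma2 and 79.3% to Mcpt2, and Mcpt1 and Mcpt2 were 81.2% identical. No stretch of 50 bases was shared exactly between the transcripts of Mcpt4 and Mcpt1, Mcpt4 and Mcpt2, Mcpt1 and Mcpt2 or Tpsb2 and Tpsab1. Mcpt4 and Cma2 shared 58 such stretches, 5.48% of those in Mcpt4, and Cma2 itself reached 1.07 CPM at most.

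Gata2 encodes a zinc finger transcription factor needed for mast cell and basophil development and also active in endothelium and blood progenitors. It lies on chromosome 6 from 88193891 to 88207032. Gata2 measured 13.0 and 16.1 CPM in the naive group, 4.79, 2.23 and 9.40 CPM in the first exposure group, 11.7, 19.2 and 26.1 CPM in 2x, and 25.5, 24.1 and 11.0 CPM in 3x. All first exposure libraries were below all libraries of the other groups, including saliva immune skin at 13.2 CPM. The mean was 14.5 ± 2.14 CPM in naive skin (n = 2) and 5.47 ± 3.64 CPM after first exposure (n = 3), a log2 fold change of -1.42 (SE 0.525, 95% interval -2.60 to -0.24, limma adjusted p = 0.233). In 3x the mean was 20.2 ± 8.04 CPM. Log2 fold changes from naive were 0.30 in 2x and 0.37 in 3x (limma adjusted p = 0.886 and 0.931).

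Gata2 was the member nearest to a call, in repeat exposure (2x and 3x pooled, n = 6) against first exposure (n = 3). The mean was 3.58-fold as high, and the log2 fold change was 1.75 (SE 0.385, 95% interval 0.90 to 2.61, limma adjusted p = 0.0673). The 8 endothelial markers summed to 287 and 369 CPM in the naive libraries and 159, 105 and 229 CPM in the first exposure ones. In 2x they summed to 123, 240.1 and 448 CPM and in 3x to 251, 445 and 277 CPM, and no endothelial marker was at 0 in any library. Of those 8 genes, 7 were without overlap below naive after first exposure, where the same held for 14% of all genes. The part of endothelial cells in the Gata2 values was not tested.

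With Mcpt4, Gata2 correlated over the 12 libraries with r = 0.862 and rho = 0.643 (adjusted permutation p = 0.00261 and 0.0489). Without the 2 libraries farthest from the median of Mcpt4, r was 0.651 with an adjusted permutation p of 0.131, so the relation rests in part on those libraries. Within title series 6, r was 0.627 (adjusted permutation p = 0.22).

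Kit encodes the stem cell factor receptor, carried by mast cells and also by melanocytes, on chromosome 5 from 75574987 to 75656722. Kit measured 41.6 and 14.6 CPM in the naive group, 51.0, 58.6 and 16.0 CPM in the first exposure group, 45.5, 21.9 and 24.0 CPM in 2x, and 36.3, 33.4 and 18.4 CPM in 3x. All replicated groups overlapped. Its log2 fold change from naive skin was 0.54 after first exposure, 0.21 in 2x and 0.18 in 3x (limma adjusted p = 0.677, 0.948 and 0.983). The 95% interval in 2x, -1.18 to 1.60, does not exclude a change as large as the 0.96 of Mcpt4.

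Kitl encodes stem cell factor, the KIT ligand, on chromosome 10 from 100015615 to 100100416. Kitl was at 91.6 and 74.4 CPM in the naive group, 108, 94.8 and 73.9 CPM in the first exposure group, 93.4, 58.6 and 56.6 CPM in 2x, and 66.7, 92.4 and 69.1 CPM in 3x. The groups overlapped here too. The log2 fold change from naive was 0.14 after first exposure, -0.28 in 2x (95% interval -0.86 to 0.30) and -0.13 in 3x (limma adjusted p = 0.791, 0.725 and 0.955). Per kb of exon, Kitl was above Kit in every group mean, for example 14.7 against 5.35 CPM per kb in naive skin.

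Kit did not follow the proteases over the libraries: r with Mcpt4 was -0.266 over 12 libraries (permutation p = 0.413, rho = -0.119) and 0.52 within title series 6. Kit and Kitl correlated with each other (r = 0.756, rho = 0.727, adjusted permutation p = 0.0202 and 0.023), with r = 0.647 without the 2 libraries farthest from the median of Kit (adjusted permutation p = 0.131). The level of Kit ran with the hair follicle genes, with r = 0.948 and rho = 0.902 (adjusted permutation p = 0.00045 and 0.00126 over 18 relations of members with the hair follicle and melanocyte lists, which were added after the data were seen). Without the 2 farthest libraries r was 0.937, and within title series 6 it was 0.923 (adjusted permutation p = 0.00702 and 0.0612).

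The libraries leave a gap in the hair follicle mean between 2.42 and 4.91, so each side was also taken alone. Among the 6 libraries above the gap, r of Kit with the hair follicle mean was 0.873 (exact permutation p = 0.0264), and among the 6 below it was 0.344 (exact permutation p = 0.547). For Kitl these were 0.838 above (exact permutation p = 0.0222) and 0.0742 below (exact permutation p = 0.869). Kit ranged from 33.4 to 58.6 CPM above the gap and from 13.1 to 24.0 CPM below it, without overlap. For Kitl the ranges were 66.7 to 108 CPM and 50.4 to 74.4 CPM. The share of all genes that separate at this gap was not computed, so the lack of overlap for Kit is a description. The split was set from the hair follicle values of these same libraries and made only for Kit and Kitl. The exact p-values are not adjusted and are a description.

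The 8 melanocyte markers, led by the pigment enzymes Dct and Tyrp1, summed to 198 and 45.4 CPM in the naive libraries and to 1255, 2215 and 25.1 CPM in the first exposure ones. In 2x they summed to 725, 10.1 and 24.6 CPM, in 3x to 76.4, 127 and 29.7 CPM and in saliva immune skin to 20.1 CPM. Dct, Tyrp1, Pmel, Tyr and Sox10 were above 0 in every library, and at least 1 of Mlana, Oca2 and Slc45a2 was listed at 0 in 6 libraries. Kit correlated with their mean with r = 0.897 and rho = 0.839 (adjusted permutation p = 0.00045 and 0.00495). Within title series 6, r was 0.829 (adjusted permutation p = 0.0652). For Mcpt4, r with the hair follicle mean was -0.32 (permutation p = 0.321) and 0.318 within title series 6. When the hair follicle mean was added to the fit, the log2 fold change of Kit in repeat against first exposure turned from -0.34 to 0.12, and neither value passed the test. The share of Kit that came from mast cells was not tested.

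**Figure D2:**
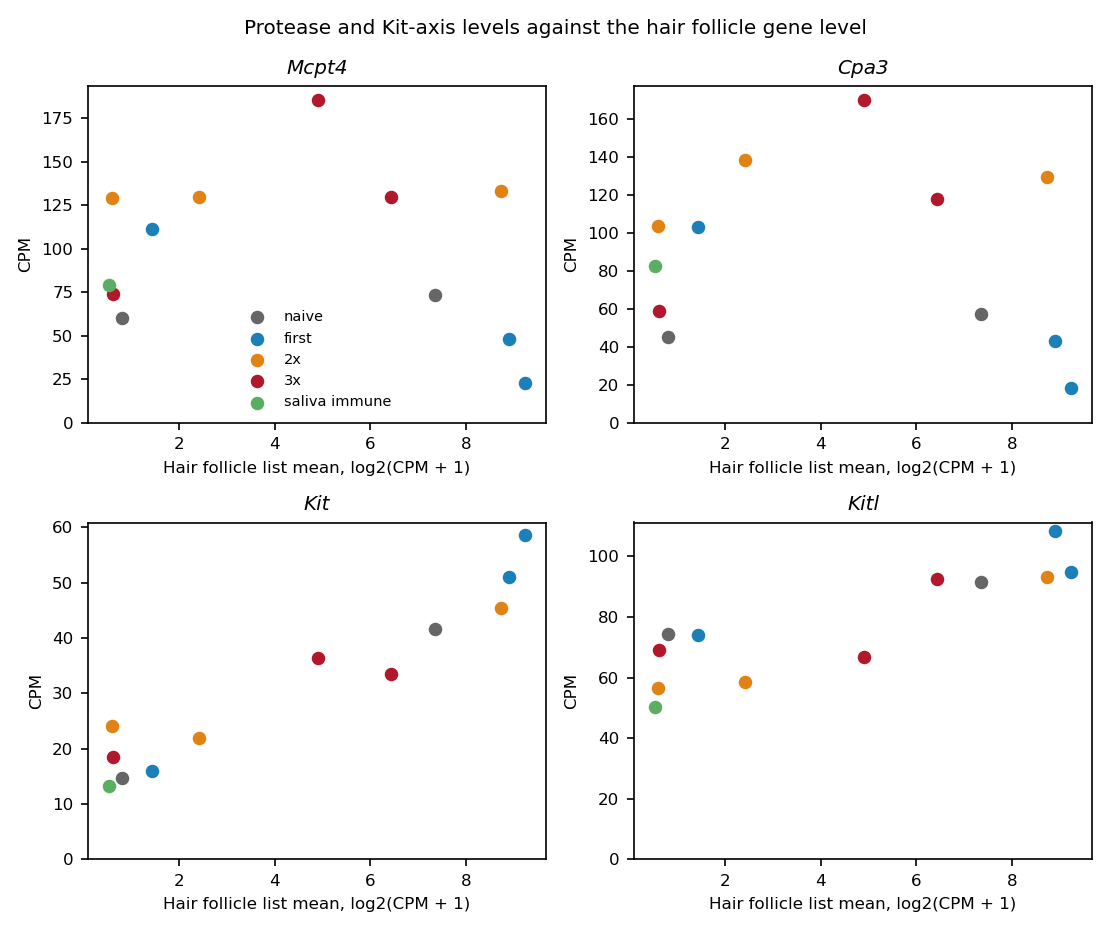
CPM of Mcpt4, Cpa3, Kit and Kitl (y axes) against the mean log2(CPM + 1) of 20 hair follicle genes (x axes), 1 point per library, coloured by group. Kit is at least 33.4 CPM in the 6 libraries on the right and at most 24.0 CPM in the 6 on the left, while Mcpt4 and Cpa3 have high and low libraries at both ends.

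The comparisons can be read across all 8 tested genes. In 2x against naive skin, 0 of the 8 were called at an adjusted p below 0.05 in limma, where 0.0352% of all genes were called. Leaving aside Mcpt1, which the filter kept for its level in 2x and 3x, 2 of the other 7 had an unadjusted p below 0.05 (Cma1 and Tpsb2), where 10.9% of all genes had one. Of these 7, 6 log2 fold changes were above 0, with a median of 0.96 against 0.01 for all genes tested. The libraries did not overlap for 4 of the 7 (Mcpt4, Cma1, Tpsb2 and Cpa3), all higher in 2x, where 14.7% of all genes were higher without overlap. These 4 varied together, so they are not separate observations. Mcpt1 did not overlap either, on 5 estimated reads in the lowest 2x library against 4 in the highest naive one.

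In 3x against naive skin, 0 of 8 were called, with 0.00586% of all genes called, and 1 (Tpsb2) had an unadjusted p below 0.05 in limma, where 6.95% of all genes had one. Without Mcpt1 the median was 0.86 against 0.02 for all genes, and the 4 granule proteases were higher without overlap, where 15.5% of all genes were. Both comparisons share the naive libraries. Between 3x and 2x, 0 of 8 were called, as for all genes (0%), and 0 had an unadjusted p below 0.05 in limma, where 5.15% of all genes had one. The median over the 8 was -0.13, and the interval for Mcpt4 (log2 fold change -0.11) ran from -1.24 to 1.03, so a difference of that size in either direction was not detectable.

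In first exposure against naive skin, 0 of 8 were called, where 0.0117% of all genes were, and 1 (Gata2) had an unadjusted p below 0.05 in limma, where 16.4% of all genes had one. Of the 8, 4 were above 0 and 4 below. Gata2 was the 1 gene lower without overlap, where 14% of all genes were. Both counts, 1 of 8, are no larger than the share over all genes. The spread among first exposure libraries was wide: the third had 111 CPM of Mcpt4 and a hair follicle mean of 1.44, the others 47.8 and 22.7 CPM with means of 8.91 and 9.24.

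In repeat against first exposure, 0 of 8 were called, where 0.82% of all genes were, and 5 of the 7 genes other than Mcpt1 had an unadjusted p below 0.05 in limma, where 20.6% of all genes had one. These 5 were Gata2 and the 4 granule proteases, which varied together and are not separate observations. The log2 fold changes were 1.33 for Mcpt4, 1.19 for Cma1, 1.47 for Tpsb2 and 1.37 for Cpa3 (limma adjusted p = 0.135, 0.194, 0.135 and 0.157). For Mcpt1 it was 1.00 and for Kitl -0.35 (limma adjusted p = 0.195 and 0.312). Gata2 was the 1 gene without overlap, where 3.07% of all genes were higher without overlap. Without the third first exposure library, 5 of the 8 were called: Mcpt4 at 1.90, Cma1 at 1.82, Tpsb2 at 2.03, Cpa3 at 1.98 and Gata2 at 2.18 (limma adjusted p = 0.0202, 0.0254, 0.0244, 0.0231 and 0.0193). In that fit 13.3% of all genes were called, against 0.82% with the library kept. The calls for these 5 therefore turn on that library. Over all genes, calls also turned on other libraries. They fell to 0 without the second first exposure library, the third 2x library, or the first or second 3x library. The comparison also runs between title series 4 and 6. In the same comparison 2 of 7 adipocyte genes were called (Adipoq at 1.56 and Cidec at 1.55, limma adjusted p = 0.0351 for both) and all 7 were above 0, and the 20 hair follicle genes were all below 0 with a median of -2.74 and 0 called (0 at an unadjusted p below 0.05 in limma). The part of this tissue content in the values of the mast cell genes was not tested.

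In all bitten skin (first exposure, 2x and 3x, n = 9) against naive skin, 0 of 8 were called, where 0.041% of all genes were, and 1 (Tpsb2) had an unadjusted p below 0.05 in limma, where 11.2% of all genes had one. The log2 fold change of Tpsb2 was 1.22 (95% interval 0.03 to 2.41, limma adjusted p = 0.436), and those of Mcpt4, Cma1 and Cpa3 were 0.47, 0.90 and 0.69. Title series 6 holds no first exposure library, so within it bitten skin was the mean of 2x and 3x only. There the log2 fold changes of Tpsb2, Mcpt4, Cma1 and Cpa3 were 1.71, 0.91, 1.29 and 1.15. Gata2 was at -0.25 with first exposure included and at 0.34 there, and neither value passed the test.

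**Figure D3:**
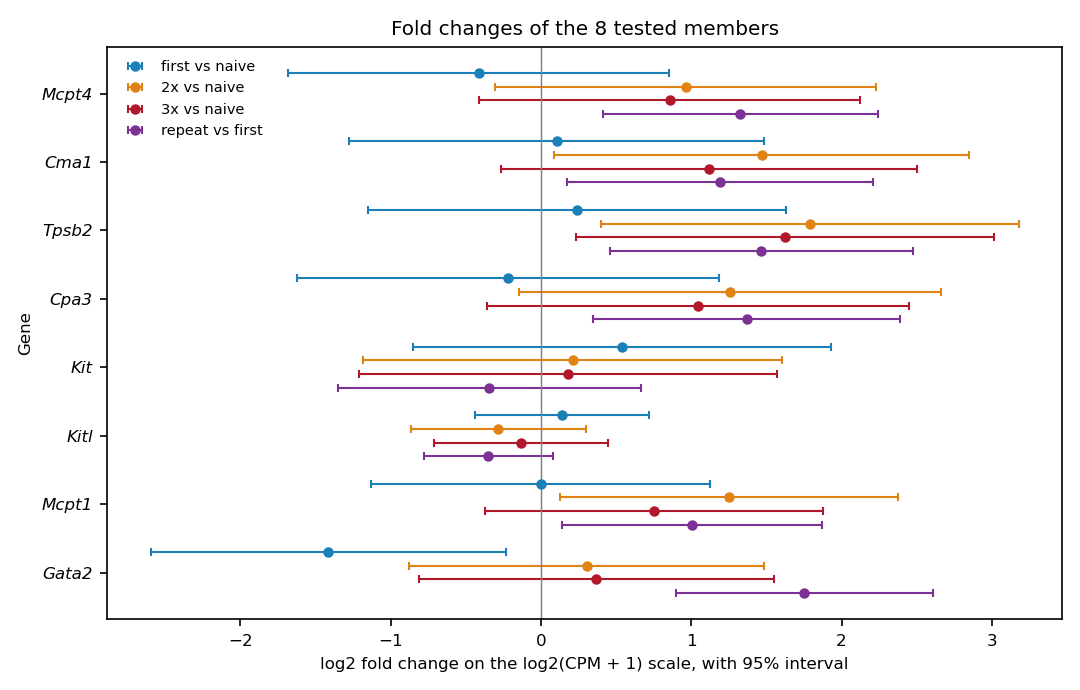
Log2 fold change (x axis, on the log2(CPM + 1) scale) of the 8 tested genes (y axis) in 4 comparisons, as points with 95% limma intervals. The intervals of Tpsb2 lie above 0 in 2x, 3x and repeat exposure. Those of Gata2 lie below 0 for first exposure against naive and above 0 for repeat against first. Intervals also lie above 0 for Cma1 and Mcpt1 in 2x, and for Mcpt4, Cma1, Cpa3 and Mcpt1 in repeat against first. None of these passed adjustment over all genes.

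Other mast cell genes were read from lists of receptors, granule mediators, transcription factors and KIT signalling. Of 9 surface receptors, all 9 were above 0 in 2x and in 3x against naive skin, with medians of 1.01 and 1.02 against 0.01 and 0.02 for all genes. None was called by limma (0 of 9), and 4 in 2x and 2 in 3x had an unadjusted p below 0.05, where 10.9% and 6.95% of all genes had one. In 2x, 7 of them were higher without overlap, where 14.7% of all genes were, and in 3x 5, where 15.5% were. The list includes Fcer1a, which reached 1 CPM only in bitten libraries and so passed the filter through them. Fcer1a is counted in each of these numbers and medians, so its part in them was set by that filter. Cd200r3 in this list is also a basophil marker in the list read below. The 2 most abundant were Cd63, a granule membrane protein exposed on degranulation but also made by other cells, and Fcer1g, the common Fc receptor gamma chain. Their log2 fold changes in 2x were 0.96 and 1.64 (limma adjusted p = 0.308 and 0.464).

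Fcer1a, the IgE-binding alpha chain, was singled out after its values were seen. It was at 0.168 and 0.160 CPM in naive skin, at or near the floor, and at 6.34, 9.09 and 4.59 CPM in 2x and 7.93, 4.25 and 1.15 CPM in 3x. First exposure had 0.944, 0.0558 and 3.54 CPM. All 2x and 3x libraries were above naive, and the log2 fold change in 2x was 2.68 (SE 0.668, limma adjusted p = 0.257). Ms4a2, the beta chain of the same receptor, was at 1.88 and 2.16 CPM in the naive group, at 1.92, 0.780 and 4.70 CPM in the first exposure group, at 5.80, 5.71 and 5.96 CPM in 2x and at 8.47, 5.66 and 2.74 CPM in 3x. Its log2 fold change was 1.18 in 2x and 1.03 in 3x (limma adjusted p = 0.420 and 0.742).

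Of the granule mediator list, 11 of 12 genes were tested. In 2x 7 were above 0 (median 0.03) and in 3x all 11 were (median 0.51). Limma called 0 in either, with 1 and 2 at an unadjusted p below 0.05, where 10.9% and 6.95% of all genes had one. Ptgs1, the prostaglandin synthase COX-1, and Srgn, the granule proteoglycan serglycin, were the most abundant, and neither is specific to mast cells. In 2x their log2 fold changes were -0.03 and 2.21 (limma adjusted p = 0.997 and 0.502). Tpsab1, the neighbouring tryptase gene, which RefSeq lists for this build as a transcribed pseudogene, was at 0.537 and 0.639 CPM in the naive libraries and at 4.89, 0.613 and 26.5 CPM in the first exposure ones. It was at 45.9, 31.9 and 20.4 CPM in 2x and at 36.7, 11.0 and 1.49 CPM in 3x, so 2x and 3x did not overlap with naive. The log2 fold change in 2x was 4.34 (SE 1.23, limma adjusted p = 0.304), for a gene that reached 1 CPM only in bitten libraries. Tpsab1 is counted in the numbers for this list and was its 1 gene with an unadjusted p below 0.05 in limma in 2x. The coding sequences of Tpsab1 and Tpsb2 were 68.0% identical.

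Of 11 transcription factors of the lineage, 5 were above 0 in 2x (median -0.01) and 7 in 3x (median 0.29). Limma called 0 in either, with 1 and 0 at an unadjusted p below 0.05, where 10.9% and 6.95% of all genes had one. Cebpa and Stat5b, the most abundant of them and active in many skin cells, had log2 fold changes of -0.01 and -0.29 in 2x (limma adjusted p = 0.997 and 0.802). Of 22 KIT signalling genes, 16 were above 0 in 2x and 16 in 3x (medians 0.30 and 0.21). Limma called 0, with 1 at an unadjusted p below 0.05 in each, against the same shares of all genes. Ptpn11, the phosphatase SHP2, had a log2 fold change of -0.15 in 2x. Pik3r1, a regulatory subunit of PI3 kinase, was lower without overlap in each bitten group. The same held for 14%, 12.8% and 9.58% of all genes in first exposure, 2x and 3x. Its log2 fold changes from naive were -0.90, -0.73 and -0.59 in that order (limma adjusted p = 0.114, 0.321 and 0.654). These comparisons share the naive libraries.

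Of 7 tested mast cell growth factors and cytokines, 6 were above 0 in 2x and 5 in 3x (medians 0.43 and 0.13). Limma called 0, with 0 at an unadjusted p below 0.05 in each, where 10.9% and 6.95% of all genes had one. Cxcl12, a chemokine of stromal cells, and Il33, an alarmin of keratinocytes and endothelium that acts on mast cells, had log2 fold changes of 0.08 and 0.43 in 2x (limma adjusted p = 0.970 and 0.916). Other chymase locus genes included Gzmb, at 0.638 and 0.0800 CPM in naive skin and 1.72, 7.19 and 4.72 CPM in 2x. Its log2 fold change was 1.92 (limma adjusted p = 0.428), for a gene below the filter of 1 CPM in both naive libraries. Prss22, a tryptase family protease, had a log2 fold change of 0.78 in 2x (limma adjusted p = 0.533).

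Markers of the other cell types in the biopsies were read beside these genes for 2x against naive skin. Limma called 0 genes of their lists, and 6 over all these lists had an unadjusted p below 0.05, where 10.9% of all genes had one. All 4 tested basophil genes were above 0 (median 0.88), with Csf2rb2 at 0.61 and Il3ra at 0.75. Cd200r3 is in this list and in the surface receptor list, so the lists are not separate observations. The basophil gene Mcpt8 reached 1 CPM in the fit only through 2x and 3x libraries, so a higher value there was set by the filter. Mcpt8 is nevertheless counted in the 4 and in their median. All 5 macrophage genes were also above 0 (median 0.65), with Lyz2 at 0.60 and Mrc1 at 0.77. Of the 8 endothelial genes 7 were below 0 (median -0.35), with Pecam1 at -0.26 and Cdh5 at -0.45. Of the 6 fibroblast genes 4 were below 0 (median -0.32), although Col3a1 stood at 0.42 and Col1a2 at -0.13. Of the 20 follicle genes 15 were below 0 (median -0.13), although the most abundant, Tchh and Krt71, stood at 0.08 and 0.22. All 6 muscle genes were below 0 (median -2.30), with Acta1 at -1.68 and Myh4 at -2.59. Of the 7 adipocyte genes 5 were below 0 (median -0.64) and 3 lower without overlap, where 12.8% of all genes were. Of the 8 melanocyte genes 6 were below 0 (median -0.35). Of the 5 epidermal keratins 4 were above 0 (median 0.22), with Krt10 at -0.06 and Krt5 at 0.22. The lowest limma adjusted p of the genes named was 0.387, for Myh4.

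Genes with the most similar profiles were ranked by Pearson's r over the 12 libraries among 14960 genes, as a description. Nearest to the mean of the 4 proteases were Ms4a2 (r = 0.984), the mast cell receptor Mrgprb1 (0.956), the adaptor Lat2 (0.954), Psap (0.95), Cd300a (0.945), Kdelr1 (0.94), Hexa (0.934) and Mapk3 (0.933). Nearest to Kit were the hair keratins Krt33a (0.956) and Krt86 (0.955), Tmprss11e (0.955) and the keratin-associated Krtap8-1 (0.953). Among those nearest to Kitl were Kirrel (0.973), Acvr1 (0.936) and Hhip (0.934), and nearest to Gata2 were Pttg1ip (0.972), Hhex (0.963), Trim8 (0.958) and H2-Q9 (0.954).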

How the data were processed

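The submitters' processing notes name STAR, Partek 8.0.19 and the build GRCm38.p6. Annotation and counting method: not given in the sources used here. The authors deposited CPM with 0.0001 added to every value, so 0.0001 is written as 0 here. Depth was estimated from the step between low CPM values, of which 73.7% to 79.4% fell within 0.02 reads of a whole number.

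The 17064 genes with at least 1 CPM in 2 of 11 libraries were compared with limma 3.58.1 (R 4.3.3) on log2(CPM + 1), with a variance trend. The fits had 4 groups, or 3 with 2x and 3x pooled. P-values were adjusted over all genes by Benjamini-Hochberg, and calls needed a value below 0.05. The saliva immune library was described only. The test was checked on simulated data.

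The members, lists and comparisons were chosen with earlier results of these data known. All members were named. From each list, called genes were named, or otherwise the 2 most abundant. Of the genes ranked by likeness to a member, 1 is not reported here. Of 150 list genes, 10 were not analysed here. Exon lengths and coding sequences came from GENCODE, promoters and coordinates from RefSeq. Alternatives were other pseudocounts (0.5, 0.1), filters, scalings, fits, a hair follicle covariate and leaving out each library. Python 3.11.15, pandas 2.3.3, numpy 2.4.6, scipy 1.17.1, Biopython 1.88 and matplotlib 3.10.9 were used.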

Additional observations from a re-analysis of the deposited data

Results flagged for a closer look

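The saliva immune library entered no comparison. In it, 6 of the 9 genes were above both naive libraries: Mcpt4 was at 79.2 CPM, Cma1 at 72.7 CPM, Tpsb2 at 50.5 CPM, Cpa3 at 82.8 CPM, Mcpt1 at 1.13 CPM and Mcpt2 at 0.468 CPM. Mcpt1 and Mcpt2 rest on 29 and 12 estimated reads there. The other three genes were not above naive. Kit at 13.1 CPM and Kitl at 50.4 CPM were the lowest of all 12 libraries, and the library also had the lowest hair follicle mean, 0.54. Gata2 at 13.2 CPM lay between the naive libraries. With 1 library there is no test, and the title series of this library holds no naive skin.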

How the results depend on the processing

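No paired analysis was possible because the labels carry no numbers that link libraries of different groups. With 2 or 3 libraries a group and an unequal tissue content, the tests detect only large changes. The number of the 8 genes called stayed at 0 in each comparison under each alternative, except for repeat against first exposure, where leaving out 1 library gave 0 to 5 calls. Pairs of members correlated past an adjusted p of 0.05 numbered 23 of 36, against 7 within title series 6 (fewer libraries), 7 without the 2 farthest libraries (fewer libraries) and 17 with median-of-ratios scaling.

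With a library left out, 497 fold changes kept direction and call, 5 became called and 26 changed sign. The signs that changed were of values that did not pass the test, as these ranges over libraries left out show. For first exposure against naive they were -0.99 to 0.13 for Mcpt4, -0.53 to 0.66 for Cma1, -0.33 to 0.71 for Tpsb2, -0.83 to 0.38 for Cpa3, -0.19 to 1.26 for Kit, -0.0065 to 0.29 for Kitl and -0.094 to 0.088 for Mcpt1. For Kit they were -0.51 to 0.94 in 2x, -0.55 to 0.90 in 3x and -0.41 to 1.03 in bitten skin, and for Kitl -0.28 to 0.017 in 3x and -0.24 to 0.058 in bitten skin. For 3x against 2x they were -0.41 to 0.25 for Mcpt4, -0.71 to 0.067 for Cma1, -0.59 to 0.28 for Tpsb2, -0.55 to 0.20 for Cpa3, -0.22 to 0.29 for Kit and -0.23 to 0.44 for Gata2.

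Of the other alternatives, 444 kept direction and call and 5 changed sign. First exposure against naive gave 0.030 for Mcpt1 with a pseudocount of 0.1, and 0.052 for Mcpt1 and -0.019 for Kitl with the hair follicle covariate. That covariate gave 0.12 for Kit in repeat against first exposure. Within title series 6, added after the data were seen, Gata2 was at 0.34 in bitten against naive skin. That comparison leaves out first exposure, where Gata2 was lowest, so it is not the same contrast. The cause of the other changes of sign was not tested. The fit with only the groups compared was not separate for bitten against naive, where it is the fit reported.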
